A study of Homo sapiens with 42 samples.

Results

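The comparison of cytokine-enriched medium with control medium after 30 min used 6 of the series' 42 arrays. The cells were Hep3B, an established human hepatoma line that makes many of the plasma proteins of the liver. All 6 cultures were Hep3B at 30 min: 3 had received CM, which the labels describe as rich in pro-inflammatory cytokines, and 3 had received NCM, the control. The members were chosen by the group and the experiment number in the sample titles, and experiments S1, S2 and S3 each gave 1 CM and 1 NCM culture from a shared batch of cells, so that the time had 3 pairs. Which cytokines CM held, how CM and NCM were prepared and the doses used are not stated in the sources read here. A single tumour cell line was studied, so the values describe that line. The labels' question is how mRNA abundance in CM against NCM moved over time, and the series has the same pairs at T0, 15 min, 1 h, 3 h, 6 h and 16 h.

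Pro-inflammatory cytokines act on hepatocytes through a few fast signalling routes. Interleukin-1 and tumour necrosis factor release NF-kappaB from its inhibitor IkappaB-alpha, the product of NFKBIA, and the freed factor moves to the nucleus and switches on NFKBIA itself, TNFAIP3 and chemokine genes. The same receptors drive the stress-activated MAP kinases, which turn on immediate early genes such as JUN and ATF3 before any new protein has been made. Interleukin-6 acts through IL6ST and JAK kinases on STAT3, with SOCS3 as an early feedback gene and the acute phase proteins of the liver as later products.

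Every array held 13824 probes, of which 7336 named 1 gene and stood for 5631 genes. A gene is given by its brightest probe, and other probes are named by number. Levels are log2 of the quantile-normalized intensity, with a floor of -3.62 below which no probe was read, and a change is CM minus NCM on that scale, averaged over the 3 pairs. The SE comes from limma, which pooled the spread over all 21 pairs of the series, so it does not measure the 3 pairs of 30 min alone. Precision is limited by having 3 pairs.

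The 6 arrays of 30 min included both ends of the series in median intensity as deposited, with 0.807 for CM of S2, the highest of 42, and 0.354 for CM of S3, the lowest. CM and NCM of a pair correlated over all probes at 0.95 in S1, 0.878 in S2 and 0.935 in S3. The pair differences had an SD over genes of 0.406 in S1, 0.690 in S2 and 0.423 in S3. Across the 5631 genes, which are not independent replicates, the differences of S1 correlated with those of S2 at 0.015 and with those of S3 at -0.0519, and S2 with S3 at -0.185. The 3 experiments thus shared little of their gene-by-gene differences.

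In S2 and S3 the difference also moved with the probe number. Over probes 1 to 6144 the median pair difference was 0.02 in S1, -0.24 in S2 and 0.18 in S3, and over probes 6145 to 12288 it was 0.02, 0.21 and -0.25. Genes of the second stretch therefore sat higher in S2 and lower in S3 than genes of the first. A second set of values was made by run centring, in which the median deviation of each run of 384 consecutive probe numbers was subtracted on each array. What the probe numbers stand for on the array was not tested.

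**Figure D1:**
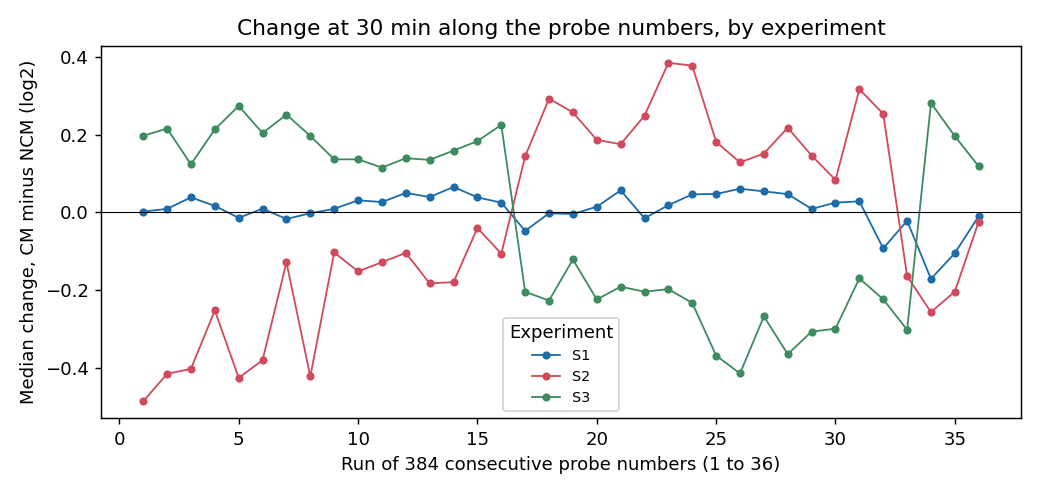
Median change at 30 min (CM minus NCM, log2, vertical axis) of each of the 36 runs of 384 consecutive probe numbers (horizontal axis), with 1 colour per experiment. S1 stays near 0, while S2 lies below 0 and S3 above 0 over the first 16 runs (medians -0.24 and 0.18) and on the opposite sides over probes 6145 to 12288.

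No gene rose or fell at 30 min by the test. NFKBIA, the inhibitor gene of NF-kappaB, had the smallest unadjusted p of all genes and the only change of at least 1, at 1.09 or 2.13-fold higher in CM. ATF3, a stress-induced immediate early transcription factor, had 0.96 and the fourth place among higher genes. These places changed with run centring. By limma's unadjusted p ACADM then ranked 1st of the genes, with a change of -0.91, NFKBIA 6th and ATF3 9th. NFKBIA was then higher in 2 of 3 pairs. limma with Benjamini-Hochberg adjustment called 0 of 13824 probes (0%), and the lowest adjusted p was 0.997. At an unadjusted p under 0.05 it found 485 probes (3.51%), 256 higher and 229 lower, where 691.2 would be given by no difference at all. Among the genes, 124 were higher (2.20%) and 111 lower (1.97%) at that unadjusted threshold, the median change was -0.01 and the median SE 0.26. Genes higher in 3 of 3 pairs numbered 458 (8.13%) and genes lower in 3 of 3 pairs 741 (13.2%). After run centring they numbered 694 (12.3%) and 724 (12.9%). All 3 CM arrays lay above all 3 NCM arrays for 67 genes (1.19%) and below them for 98 (1.74%).

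The 10 genes per direction with the smallest unadjusted p among those moving one way in 3 of 3 pairs are given as values, since none passed. Above 0 stood NFKBIA at 1.09, ATF3 at 0.96, ZBTB33 at 0.96, HEXA at 0.87, EPM2AIP1 at 0.86, DNAJA4 at 0.84, COMMD5 at 0.84, CC2D1B at 0.81, SESN1 at 0.80 and LRRC32 at 0.74. ZBTB33 encodes Kaiso, a transcriptional repressor that binds methylated DNA, HEXA a lysosomal hexosaminidase subunit, DNAJA4 a co-chaperone, SESN1 a sestrin of the p53 response, and LRRC32 a surface protein that holds latent TGF-beta. Below 0 stood TRIM28 at -0.96, TUBB4B at -0.95, TMEM69 at -0.91, ACADM at -0.85, RGN at -0.82, SSBP1 at -0.69, TRMT10C at -0.66, NUMB at -0.66, ZNF664 at -0.64 and PGRMC2 at -0.61. TRIM28 encodes a co-repressor of zinc finger proteins, TUBB4B a beta-tubulin, ACADM an enzyme of mitochondrial fatty acid oxidation, RGN the calcium-binding protein regucalcin, and NUMB an inhibitor of Notch. SSBP1 and TRMT10C both encode proteins of mitochondria, of which the first binds single-stranded DNA and the second takes part in tRNA processing.

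Probe number moved with this ranking. Of the 20 genes, 19 had their probe between 6145 and 9216, a stretch that holds 33.4% of the genes. In that stretch 6.97% of the probes had an unadjusted p under 0.05, against 2.10% of the probes up to 6144. After run centring limma called 0 probes, with a lowest adjusted p of 0.996 and 630 probes at an unadjusted p under 0.05. Run centring did not take the top of the ranking out of that stretch. By limma's unadjusted p ACADM, TRIM28, TMEM69, DNAJA4 and NFKBIA then ranked 1st, 3rd, 4th, 5th and 6th, all with probes between 6145 and 9216. The part of the probe number in the ranking was not tested further. ZBTB33 lies at probe 2681 and was the exception by position. After run centring it ranked 2nd, with a change of 0.93 and pair differences of 0.79, 0.93 and 1.08. Its sign turned in 1 of 14 alternatives, at -0.05 with median centring of the arrays in place of quantile normalization.

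**Figure D2:**
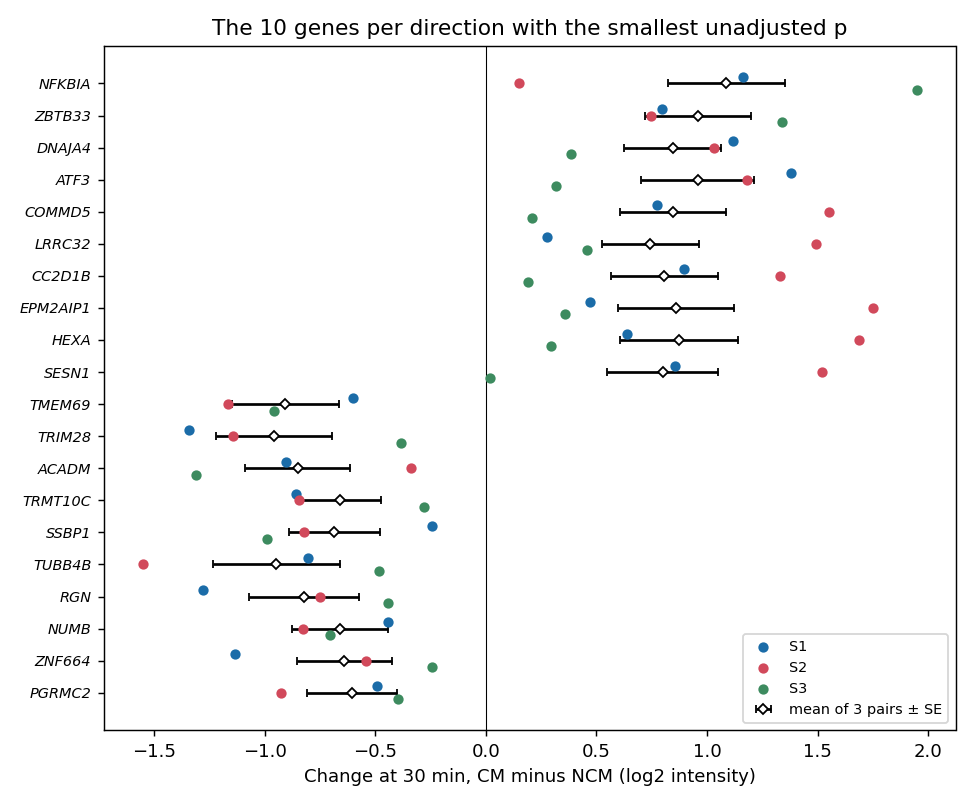
Change at 30 min (CM minus NCM, log2 intensity, horizontal axis) of the 10 genes per direction with the smallest unadjusted p. Coloured points are the pairs S1 to S3 and the diamond with its bar is the mean of 3 pairs with the SE from limma; the means run from -0.96 for TRIM28 to 1.09 for NFKBIA, and the S2 point of many genes lies farthest from 0.

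TMEM69 had the smallest unadjusted p of the lower genes. Its levels were -0.99, -1.56 and -1.31 in CM of S1, S2 and S3, and -0.40, -0.40 and -0.35 in NCM. All CM arrays lay below all NCM arrays, with 1.88-fold higher signal in NCM (change -0.91, SE 0.24, n = 3 pairs, limma adjusted p = 0.997). At T0, 15 min and 1 h the change of TMEM69 was 0.51, 0.61 and 0.66, so 30 min was the only one of these 4 times with a value below 0. The change at 30 min minus that at 15 min was -1.52 (limma unadjusted p = 0.000259, adjusted p = 1.00). TMEM69 was picked by its values at 30 min, so its differences from the other times reuse those values and are no separate support. With neighbour centring the change at 30 min was -0.55.

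COMMD5, whose product carries the COMM domain found in regulators of NF-kappaB and of endosomal sorting, had levels of -0.73, -0.04 and -1.44 in CM and -1.50, -1.59 and -1.65 in NCM. The groups did not overlap, and CM of S2 stood highest. Its change of 0.84 (SE 0.24, n = 3 pairs, limma adjusted p = 0.997) was 0.79 after run centring, 0.32 with neighbour centring and 0.49 without S2. TRMT10C and PGRMC2 were likewise separated, with all CM arrays below all NCM arrays, and LRRC32 and EPM2AIP1 with all CM arrays above. Of all genes 1.74% were separated below and 1.19% above. All of these genes, COMMD5 and TMEM69 included, were picked by their values on the same arrays, so the separation is no separate support. The second PGRMC2 probe, probe 415, had -0.18, with pairs of mixed sign and groups that overlapped.

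Genes with more than 1 probe gave a check of single values. For the 1128 such genes the change of the brightest probe correlated with that of the second brightest at 0.027, while their mean levels correlated at 0.542, and 50.6% of the genes had the same sign on both. The changes of single genes at 30 min were therefore not carried from one probe of a gene to the next, before or after run centring (0.0374).

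NFKBIA encodes IkappaB-alpha, which holds NF-kappaB in the cytoplasm and is itself a target of the factor. Its levels in CM were -0.46 in S1, -1.14 in S2 and -1.51 in S3, and in NCM -1.62, -1.29 and -3.46. The NCM array of S3 stood lowest, close to the floor of -3.62, and CM was above NCM within each pair, by 1.16, 0.15 and 1.95. The groups overlapped, since CM of S3 lay below NCM of S2. The mean change was 1.09 (SE 0.27, n = 3 pairs, limma unadjusted p = 0.000557, adjusted p = 0.997). The size rested on S3: it was 0.66 without S3, 1.56 without S2, and 0.63 with the floor at the 10th percentile. After run centring the change was 1.07, with -0.08 in S2, and over the alternatives the adjusted p ranged from 0.261 to 1.00.

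CXCL2, a neutrophil-attracting chemokine induced by NF-kappaB, had levels of -0.11, -0.72 and -0.09 in CM and -0.87, -1.05 and -0.61 in NCM. CM was above NCM in each pair by 0.75, 0.33 and 0.52, and CM of S2 lay just below NCM of S3. The change was 0.53 (SE 0.22, n = 3 pairs, limma unadjusted p = 0.0229, adjusted p = 0.997), 1.45-fold higher in CM. After run centring the CXCL2 pair differences were 0.72, 0.44 and 0.30.

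The stretch of 120 bases before the RefSeq start of NFKBIA and of CXCL2 is shown because both genes are textbook NF-kappaB targets and were higher in CM in 3 of 3 pairs. Both lie on the minus strand of GRCh38.p14 and are written 5′ to 3′ along the gene, NFKBIA at chr14:35404750-35404869 and CXCL2 at chr4:74099196-74099315. Capitals mark matches to the NF-kappaB consensus, a motif of 10 letters searched on both strands.
NFKBIA: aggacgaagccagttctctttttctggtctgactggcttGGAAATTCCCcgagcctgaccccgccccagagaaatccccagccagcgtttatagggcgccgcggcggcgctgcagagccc
CXCL2: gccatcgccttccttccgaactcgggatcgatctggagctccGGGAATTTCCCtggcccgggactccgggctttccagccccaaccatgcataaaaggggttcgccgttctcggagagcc
The NFKBIA match reads GGGAATTTCC on the opposite strand, 81 to 72 bases before the start. CXCL2 has 2 matches that overlap, GGGAATTTCC from 78 to 69 bases before the start and GGGAAATTCC on the opposite strand from 77 to 68, so the capitals cover both. Of all 35116 RefSeq promoter windows of 300 bases, 3956 (11.3%) hold a match. The windows of ATF3 and JUN have 0 matches. A match is a description of the letters and not a measured site.

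The other inhibitors and subunits of NF-kappaB did not share the value of NFKBIA. TNIP1, which binds the deubiquitinase A20, had 0.53, with 1.45 in S2 and -0.37 in S3. TNFAIP3, the gene of A20, had 0.03, and its sign turned with median centring (-0.13). CYLD, a deubiquitinase that restrains the pathway, had -0.51 (SE 0.19, limma unadjusted p = 0.016, adjusted p = 0.997) and was lower in 3 of 3 pairs. NFKB1, the gene of the p105 precursor, had -0.22, and its other probes had 0.03 and 0.01. Of the 6 measured genes 4 were above 0, where 48.4% of all genes were, and the median was 0.04 against -0.01 for all genes. All 6 probes lie past 6144, and after run centring the median was 0.010 with 3 genes above 0. NFKBIA was among those 3. Before run centring, 3 of the 5 genes other than NFKBIA were above 0.

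Of the 11 receptor, kinase and adaptor genes upstream of NF-kappaB, 0 were called and the median was -0.07. TRAF6, the ubiquitin ligase downstream of the interleukin-1 receptor, had 0.83, made of -0.41, 1.41 and 1.48 in S1, S2 and S3. IL1R1, the receptor of interleukin-1, had -0.52, made of -0.06, -1.53 and 0.02, so the value came from S2 alone, and its other probe had 0.15. TAB1, a partner of the kinase TAK1, had -0.56 and was lower in 3 of 3 pairs. Of 16 target genes of NF-kappaB, 2 were higher in 3 of 3 pairs, NFKBIA and TNFAIP2, and 2 lower, TAP1 and CD83, with a median of -0.01. These counts are 12.5% each, against 8.13% and 13.2% of all genes. After run centring 0 of the 16 were higher in 3 of 3 pairs and 2 lower (12.5%), against 12.3% and 12.9% of all genes. CD83, an activation marker of immune cells, had -0.43. BIRC2, an inhibitor of apoptosis, had -0.19 on its brightest probe and 0.63 on probe 8694, whose CM arrays all lay above its NCM arrays.

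ATF3 led the 30 measured immediate early genes. Its levels in CM were 0.65 in S1, -0.02 in S2 and -1.10 in S3, and in NCM -0.73, -1.20 and -1.42. CM was above NCM by 1.38, 1.18 and 0.32, and CM of S3 lay between NCM of S1 and NCM of S2, so the groups overlapped. The change was 0.96 or 1.94-fold (SE 0.26, n = 3 pairs, limma unadjusted p = 0.00123, adjusted p = 0.997). It kept its sign under every alternative run, from 0.63 with neighbour centring to 1.28 without S3, and was 0.90 after run centring.

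JUN, a subunit of the transcription factor AP-1, had levels of -1.59, -1.08 and -1.99 in CM and -2.30, -1.95 and -2.34 in NCM. It was a dim probe, and CM was above NCM by 0.70, 0.87 and 0.35 (change 0.64, SE 0.31, limma adjusted p = 0.997). CM of S3 lay just below NCM of S2, so the groups overlapped. KLF4, a zinc finger transcription factor, had 0.58 and was also higher in 3 of 3 pairs. EGR1, a serum-response transcription factor, had 0.36, made of 0.85, 0.30 and -0.06. FOS, the partner of JUN in AP-1, had -0.11 on its brightest probe and 0.45 on probe 10599, both with pairs of mixed sign, and MYC had 0.18. NR4A3, an orphan nuclear receptor of the immediate early class, had -0.43 and was lower in 3 of 3 pairs.

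Over the 30 immediate early genes the median change was 0.08 and 18 were above 0. In 3 of 3 pairs 3 were higher (10%) and 4 lower (13.3%), near the 8.13% and 13.2% of all genes. The pair medians were 0.23 in S1, 0.17 in S2 and -0.09 in S3, so S3 lay on the other side of 0. The median was -0.03 without S1, -0.02 without S2 and 0.25 without S3.

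The dual-specificity phosphatases, which switch MAP kinases off and are themselves induced by them, held 2 of 7 genes higher in 3 of 3 pairs. That is 28.6%, with 1 gene lower (14.3%), against 8.13% and 13.2% of all genes. DUSP1 had levels of -0.90, -0.49 and -0.64 in CM, lay between -1.09 and -0.87 in NCM, and had pair differences of 0.19, 0.38 and 0.36. The change was small, at 0.31 (SE 0.21, n = 3 pairs, limma adjusted p = 0.997). After run centring the DUSP1 pair differences were less even, at 0.17, 0.52 and 0.19. DUSP10, a phosphatase of p38 and JNK, had 0.63, with all CM arrays above all NCM arrays and an SE of 0.36. Of the 7 MAP kinase cascade genes 3 were above 0 and the median was -0.25, from 0.34 for MAP2K1, the kinase MEK1, down to -0.42 for MAP3K4. That median turned sign without S3 (0.026) and without the dimmest 50% of probes (0.12), and was -0.072 without S1.

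**Figure D3:**
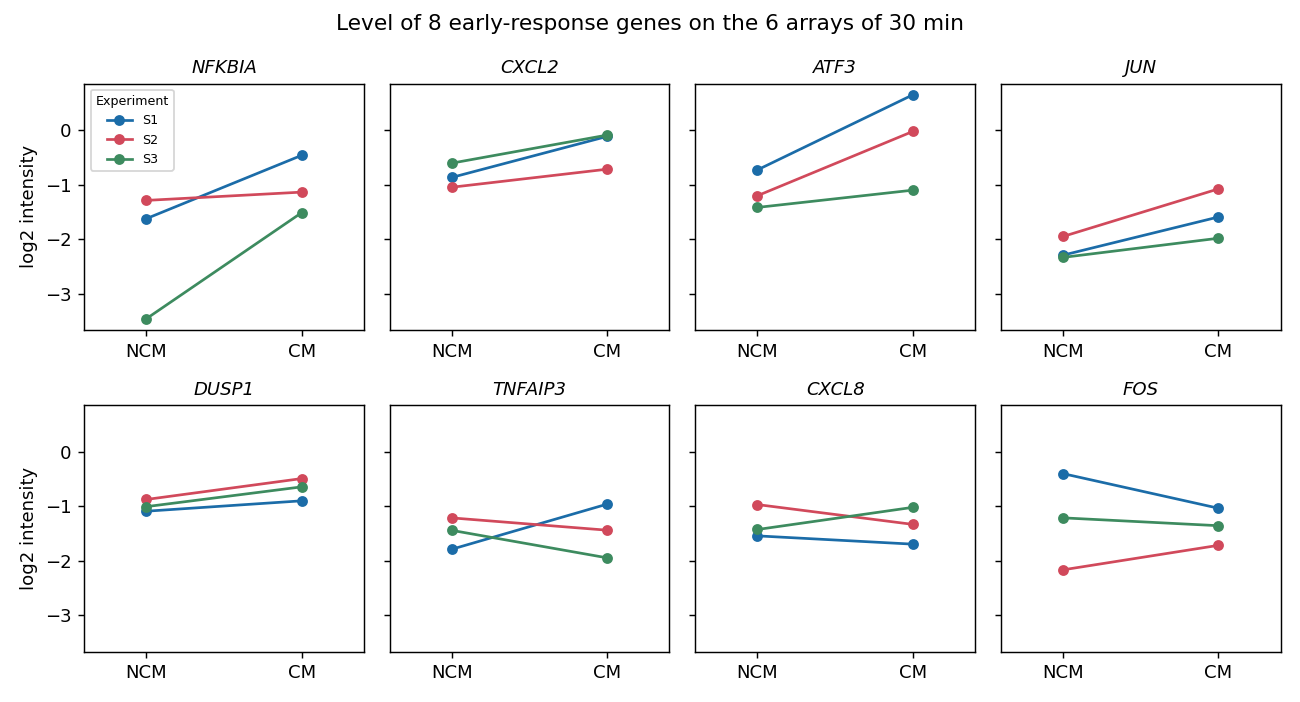
Level (log2 intensity, vertical axis) of 8 early-response genes on the 3 NCM and 3 CM arrays of 30 min, with a line joining the arrays of each experiment. All 3 lines climb from NCM to CM for NFKBIA, CXCL2, ATF3, JUN and DUSP1, while those of TNFAIP3, CXCL8 and FOS run both ways; the NFKBIA point of NCM in S3 is at -3.46.

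Among 14 chemokine genes CXCL2 was the only one higher in 3 of 3 pairs (7.14%, against 8.13% of all genes). CXCL8, the gene of interleukin-8, had -0.04 on its brightest probe with levels of -1.69, -1.33 and -1.02 in CM and -1.54, -0.97 and -1.43 in NCM. Its other probes had 0.14 and -0.35, so the 3 probes gave no common direction. CXCL3, a close relative of CXCL2, had -0.39 and was lower in 3 of 3 pairs. CCL2, a monocyte-attracting chemokine, had -0.53 with 1 CM array at the floor, and CCL8 had 0.49. The list's median was 0.02, with 7 genes above 0.

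The interleukin-6 route showed no gene with a large and even difference. SOCS3, its early feedback inhibitor, had -0.08 with levels of -1.95, -1.54 and -0.94 in CM and -1.70, -1.22 and -1.27 in NCM. The groups overlapped, and the sign turned with median centring (0.05). SOCS2, a feedback inhibitor better known from growth hormone signalling, had -0.71, -0.88 and -0.54 in CM against -1.09, -1.11 and -1.15 in NCM. All CM arrays of SOCS2 lay above all NCM arrays, with a change of 0.41 (SE 0.29, n = 3 pairs, limma adjusted p = 0.997). STAT3 had -0.01, the receptor subunit IL6ST 0.06, LIFR, a related receptor subunit, -0.29, and STAT6, the factor of interleukin-4 signalling, -0.41, with 0.37 on its other probe. The 15 genes of the list had a median of 0.06, with 8 above 0 and 0 called.

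The acute phase proteins, which the liver secretes in greater amounts in inflammation, were mostly below 0 at 30 min. Of 20 measured genes 6 were above 0, 1 was higher in 3 of 3 pairs (5%) and 4 were lower (20%), with a median of -0.18. Among all genes 48.4% were above 0, 8.13% were higher in 3 of 3 pairs and 13.2% lower. The pair medians spread over both sides of 0, and the median was 0.06 without S2. Of the 20 probes 13 lie up to number 6144, and the median was -0.17 after run centring. FGA, the fibrinogen alpha chain gene, had levels of 0.15, 0.32 and 0.59 in CM and 0.66, 0.70 and 0.70 in NCM. All CM arrays lay below all NCM arrays, with a change of -0.34 (SE 0.22, n = 3 pairs, limma adjusted p = 0.997), but its other probes had 0.14, 0.06 and -0.02. FGB, the gene of the beta chain of the same protein, had 0.34 with pairs of mixed sign, so the fibrinogen genes did not share a direction. ITIH3, which encodes a heavy chain of inter-alpha-trypsin inhibitor, stood at -0.61, made of -0.44, -1.21 and -0.18. The direction turned by probe, with 0.47 and 0.18 on its probes 2382 and 5405. CFB, the complement factor B gene, had 0.14 with pair differences of 0.06, 0.09 and 0.28, against -0.37 and 0.03 on its other probes. ORM1, the orosomucoid gene, had -0.34, with 0.15 and -0.03 on its other probes.

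Of 17 liver-secreted proteins known to fall in the acute phase or to be made steadily, 7 genes were above 0 and the median was -0.06. F7, the gene of coagulation factor VII, had levels of -0.86, -0.73 and -0.78 in CM and -1.34, -1.29 and -1.19 in NCM. The groups did not overlap, and the pair differences were 0.49, 0.56 and 0.41 (change 0.49, SE 0.32, n = 3 pairs, limma adjusted p = 0.997). After run centring the F7 pair differences were less even, at 0.48, 0.70 and 0.30. SERPINC1, the antithrombin gene, had 0.38 and was higher in 3 of 3 pairs on its brightest probe, while its other 4 probes had values from -0.25 to 0.02. APOA1, the main protein of high-density lipoprotein, had -0.30 on its brightest probe, -0.74 on probe 80 and -0.59 on probe 7936. The 2 dimmer probes were lower in 3 of 3 pairs and the brightest in 2, and probe 80 had -1.58 in S2 alone.

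Of 9 liver transcription factor genes 7 were above 0, with a median of 0.08. CEBPD, an acute phase C/EBP factor, had 0.40, made of 1.24, -0.22 and 0.18, so S1 set the value, and its other probes had -0.33 and -0.26. CEBPG, a partner of the other C/EBP factors, had 0.42. CEBPB had 0.00, and 2 of its 3 probes, this one included, are among 8 probes of 30 min whose values equal those of another probe on all 6 arrays. The CEBPB probe with values of its own, probe 10615, had 0.26.

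Ribosomal protein genes leaned below 0 more than any other large list. Of 55 measured genes 12 were above 0, 1 was higher in 3 of 3 pairs (1.82%) and 16 were lower (29.1%), against 8.13% and 13.2% of all genes. The median change was -0.21, and 0 genes were called. RPS14, a small-subunit protein gene, had -0.64, made of -0.17, -1.27 and -0.47, and RPS4X had -0.60, made of -0.14, -1.37 and -0.30, with -0.05, -0.22 and -0.53 on its other probes. RPL22, a large-subunit protein gene, stood at the other end with 0.59, made of 0.24, 2.30 and -0.77. S2 held the largest difference of all 3 genes.

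The ribosomal list's pair medians were 0.07 in S1, -0.54 in S2 and -0.20 in S3, and the median was -0.06 without S2. Of its probes 39 of 55 lie up to number 6144, where S2 ran low for genes in general. After run centring the list's median was -0.17, with 0.05 in S1, -0.27 in S2 and -0.29 in S3. In 3 of 3 pairs 2 genes were then higher (3.64%) and 17 lower (30.9%), against 12.3% and 12.9% of all genes. The ribosomal genes were bright, with a median level at the 85.9th percentile. At T0 their median was -0.12, at 15 min -0.17 and at 1 h -0.23, so values below 0 were not limited to 30 min. Whether brightness or probe number has a part in these values was not tested.

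The respiratory chain genes, which encode subunits of mitochondrial electron transport and ATP synthase, had a median of -0.13 over 53 genes with 19 above 0. COX6B1, a cytochrome c oxidase subunit gene, had levels of -0.72, -1.08 and -0.49 in CM and -0.10, -0.12 and -0.28 in NCM. All CM arrays lay below all NCM arrays (change -0.60, SE 0.23, n = 3 pairs, limma unadjusted p = 0.0155, adjusted p = 0.997). NDUFB10, a subunit gene of complex I, had 0.66 and NDUFA7, of the same complex, -0.51. The list's pair medians were 0.09, -0.36 and -0.12, so S1 again lay on the other side of 0.

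Heat shock and chaperone genes had a median of -0.12, with 9 of 29 above 0. Apart from DNAJA4 they included HSP90AA1, the inducible cytosolic HSP90, at -0.52 and lower in 3 of 3 pairs. The unfolded protein response list had a median of 0.00 over 12 genes, with XBP1, its spliced transcription factor, at 0.57 and PDIA3, a disulfide isomerase of the endoplasmic reticulum, at -0.72 and lower in 3 of 3 pairs. Translation factor genes, unlike the ribosomal proteins, had a median of 0.04, with 15 of 29 above 0, from 0.36 for EIF4EBP1, the translational repressor 4E-BP1, to -0.63 for EIF3M. The difference between these 2 lists was not tested.

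Interferon-induced genes had a median of 0.01 over 17 genes, with OASL, a relative of the oligoadenylate synthetases, at 0.69 and pairs of mixed sign. Metallothionein genes, which respond to metals and to cytokines, had a median of -0.19 over 5 genes. Their pair medians ran from -0.71 in S1 to 0.22 in S3, and their median was -0.11 after run centring, all 5 probes lying up to number 6144. MT2A had -0.62, made of -1.92, 0.24 and -0.18, and was 0.03 without S1, and its other probes had 0.11 and 0.21. Apoptosis and survival genes had a median of 0.00 over 10 genes, with BCL2, the apoptosis inhibitor, at 0.59 and CASP6, an effector caspase, at -0.35. A second CASP6 probe of like brightness, probe 9125, had 0.41 and was higher in 3 of 3 pairs.

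**Figure D4:**
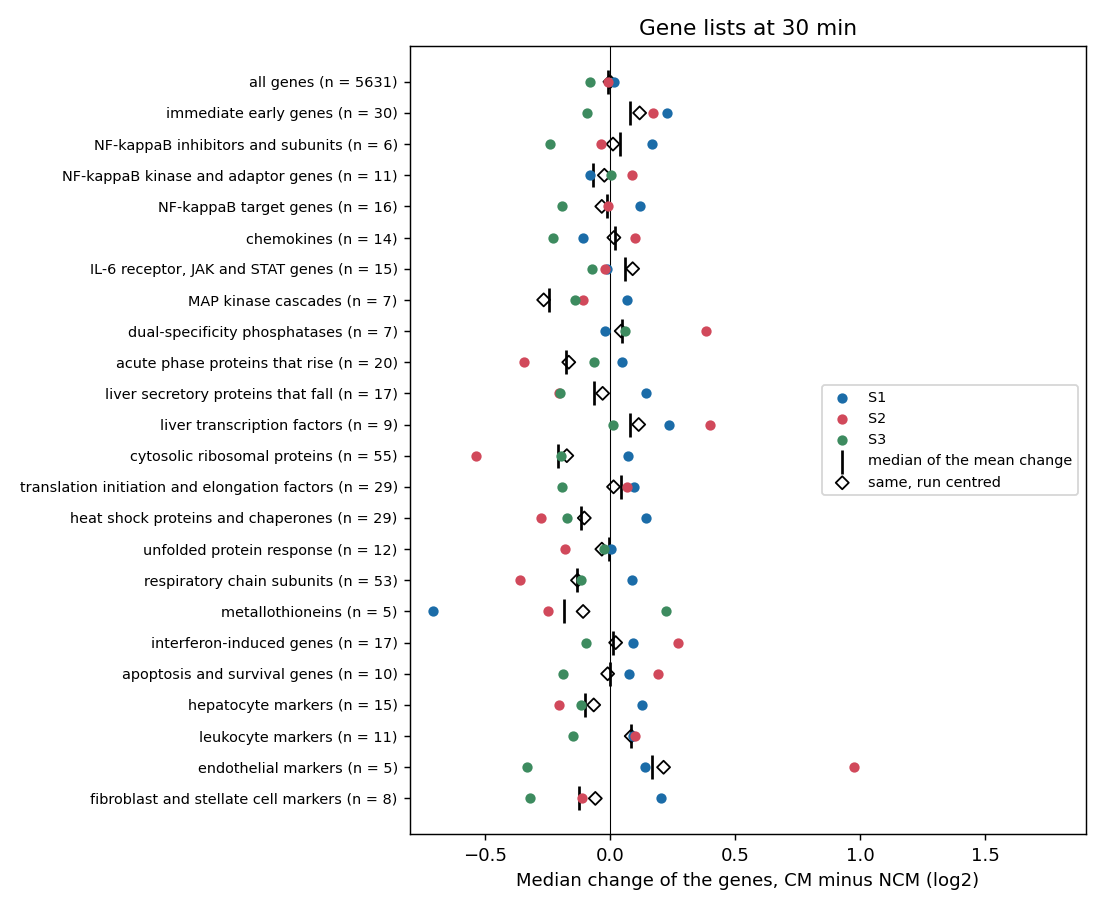
Median change at 30 min (CM minus NCM, log2, horizontal axis) of the genes of each list with at least 5 measured genes. Coloured points are the medians of S1, S2 and S3, the bar is the median of the mean change and the diamond is the same after run centring. The ribosomal list has its S2 point at -0.54 and its S1 point at 0.07, and the medians of the mean change lie between -0.25 and 0.17.

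The labelled cell type was set against its marker genes, with the limit that levels of different probes are not on a common scale. Of 15 measured hepatocyte markers 15 lay above the median level of all genes and 4 above the 90th percentile, among them AFP, alpha-fetoprotein, and ALB, albumin. Their summed intensity was 26.6 to 29.8 in CM and 27.7 to 31.5 in NCM, and their median change -0.10. Of 11 measured leukocyte markers 6 lay above the median and 0 above the 90th percentile, and their sum was 7.24 to 9.65 in CM and 7.48 to 10.5 in NCM. Endothelial markers (5 of 9 measured) summed to 3.82 to 5.32 in CM against 4.03 to 4.64 in NCM. Fibroblast and stellate cell markers (8 of 12 measured) summed to 3.78 to 5.31 against 4.35 to 5.13. Bile duct markers (2 of 5 measured) summed to 4.24 to 6.58 against 4.30 to 7.35. The ranges of CM and NCM overlapped for every marker list. Single markers of other types were bright, ENG of endothelium at the 92.6th percentile and CFTR of bile duct at the 98.4th. CD79A, a B cell receptor subunit gene, had 0.91 at a level in the 8.4th percentile. All cultures were Hep3B, so the marker lists of other cell types describe probe levels and not numbers of such cells. RNA of whole cultures was measured, so the values do not separate cell number from RNA per cell.

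At the neighbouring times T0, 15 min and 1 h limma called 0 probes too, with 700, 492 and 605 probes at an unadjusted p under 0.05 against 485 at 30 min. Genes higher in 3 of 3 pairs made up 9.57% at T0, 10.8% at 15 min and 14.7% at 1 h, against 8.13% at 30 min. Genes lower in 3 of 3 pairs made up 10.1%, 10.3% and 12.9% at those times, against 13.2% at 30 min. With run centring the shares at 30 min were 12.3% higher and 12.9% lower, and those of the other times were not counted. For the difference of 30 min from T0, from 15 min and of 1 h from 30 min limma called 0 probes each (0%), with 639, 253 and 536 at an unadjusted p under 0.05 and lowest adjusted p values of 0.999, 1.00 and 0.998. Across the 5631 genes the mean change at 30 min correlated with that at 15 min at 0.232, at 1 h at -0.0421 and at T0 at -0.0875. These are descriptions over genes that share arrays.

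The NFKBIA change was -0.27 at T0, 0.24 at 15 min, 1.09 at 30 min and 1.23 at 1 h, so 30 min was the first of these times near the level of 1 h. The change at 30 min minus that at 15 min was 0.85 and did not pass the test (SE 0.38, limma adjusted p = 1.00). ATF3 had -0.07, 0.06, 0.96 and 0.34 at the same times, with its highest value at 30 min. CXCL2 had 0.05, -0.20, 0.53 and 0.97, and CEBPD 0.18, 0.40 and 1.14 at the last 3 of them, both with the highest value at 1 h. JUN had 0.30 already at T0 and 0.50 at 15 min, and its value at 30 min was 0.35 above that at T0. CXCL3 had 0.74 at 1 h against -0.39 at 30 min. NFKBIA and ATF3 were among the genes picked by their values at 30 min. Their differences from the other times reuse those values and are no separate support.

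**Figure D5:**
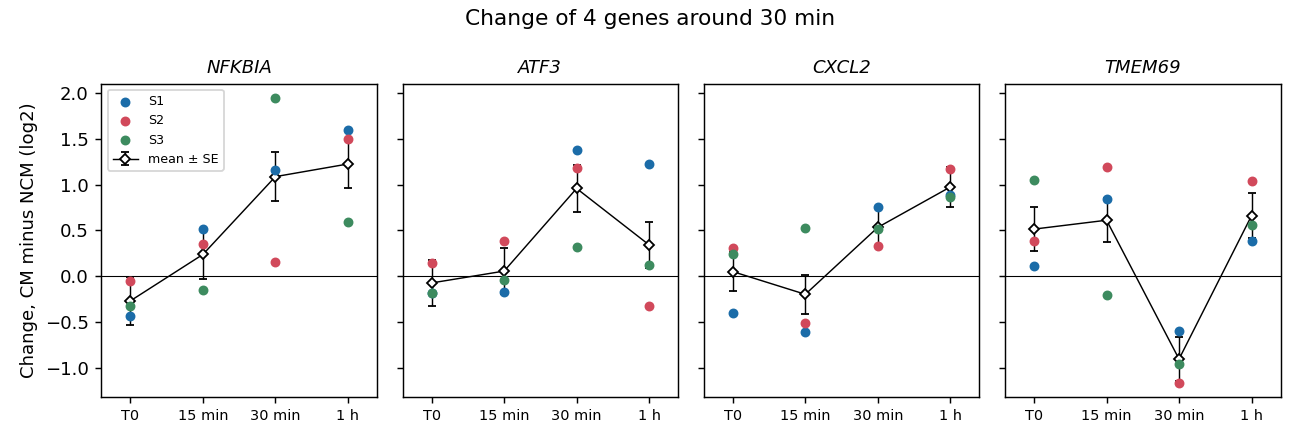
Change (CM minus NCM, log2, vertical axis) of NFKBIA, ATF3, CXCL2 and TMEM69 at T0, 15 min, 30 min and 1 h. Coloured points are the pairs S1 to S3 and diamonds the mean with the SE from limma; NFKBIA goes from 0.24 at 15 min to 1.09 at 30 min and 1.23 at 1 h, and TMEM69 is below 0 at 30 min alone.

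Of a panel of 36 inflammation and early-response genes 30 were measured, 0 were called, 19 were above 0, and the median change was 0.06. Those higher in 3 of 3 pairs numbered 6 (20%, against 8.13% of all genes) and 1 was lower (3.33%, against 13.2%). With run centring the shares of all genes were 12.3% and 12.9%, and those of the panel were not counted. NFKBIA was then higher in 2 of 3 pairs, while JUNB and STAT3, of mixed sign before, were higher in 3 of 3. IL1R1 was then lower in 3 of 3 pairs, and NFKB1 no longer was. At an unadjusted p under 0.05, 3 were higher (NFKBIA, ATF3 and CXCL2) and 1 lower (IL1R1), or 10% and 3.33%, against 2.20% and 1.97% of all genes (4.17% in both directions). The panel was chosen with results of these data known.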

How the data were processed

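The authors' deposited values are linear intensities, 1 per probe and array, with a mean near 1 on every array; the sources used here name no array type, scanner or background step. The linear values of all 42 arrays were quantile normalized, raised to the common 1st percentile (0.0813) where lower, and turned into log2 values. Tests used R 4.3.3 with limma 3.58.1: a model of all arrays with a term for each pair and a CM effect for each time (14 residual degrees of freedom, prior SD 0.309), moderated and two-sided, with Benjamini-Hochberg adjustment over 13824 probes at 0.05. Plots used matplotlib 3.10.9.

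Pairs come from the labels, which say that both cultures of a pair shared a batch of cells. At 30 min the deviations of paired arrays from their group means correlated at 0.382 to 0.754. Gene names come from the array annotation: 7322 of 7336 probes matched RefSeq genes of GRCh38.p14 by Entrez ID. Promoter sequences are RefSeq's, with a window for 4694 of 5631 genes.

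Named genes are up to 10 per direction with the smallest unadjusted p and 3 pairs in that direction, the measured genes of a panel of 36, the 2 highest and 2 lowest of each list, and their other probes; a few more list members, and the genes of the promoter and time paragraphs, were picked after their values were seen. Members and lists were chosen with earlier results of these data known. Alternatives were other scalings, floors, filters, fits, array weights, neighbour centring on an assumed layout, averaged probes, leaving out each experiment and, added after seeing the data, run centring. The steps were tested on simulated data.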

Additional observations from a re-analysis of the deposited data

How the results depend on the processing

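limma called 0 probes at 30 min, and 0 for each difference between times, under every alternative run. Probes at an unadjusted p under 0.05 numbered 485, against 114 with no replicate block for the pairing, 236 without the dimmest 50% of probes, 315 with each time fitted alone, 789 with array weights, and 371 to 962 when 1 experiment was left out. Median centring moved the median change of all genes from -0.01 to -0.10. Some changes turned sign, large ones (ZBTB33, MT2A, ITIH3 and RPL22) among them. With median centring ZBTB33 had -0.046, CXCL8 0.060, SOCS3 0.049 and TNFAIP3 -0.13. With neighbour centring CXCL8 had 0.11, SOCS3 0.040 and CEBPB -0.00304, and with run centring CXCL8 had 0.058, SOCS3 0.016, TNFAIP3 -0.026 and CEBPB -0.035. With values as deposited CXCL8 had 0.18, SOCS3 0.16 and TNFAIP3 -0.019, and with array weights MYC had -0.072. The mean of all probes gave CEBPD -0.063, CFB -0.067, FOS 0.17, ITIH3 0.011 and SERPINC1 -0.015. Leaving out 1 experiment gave -0.11 to 0.22 for CEBPB, -0.024 to 0.71 for CEBPD, -0.26 to 0.13 for CXCL8, -0.39 to 0.15 for FOS, -1.05 to 0.032 for MT2A, -0.14 to 0.45 for MYC, -0.59 to 0.078 for ORM1, -0.26 to 1.27 for RPL22, -0.28 to 0.043 for SOCS3 and -0.37 to 0.30 for TNFAIP3. The median of the MAP kinase list, -0.25, ranged from -0.35 to 0.12. The causes were not tested. With 3 pairs per time, few arrays and dim probes limit what can be detected.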
